A study of Rattus norvegicus with 3 samples.

Results

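The CCN family is a group of secreted matricellular proteins, and its genes Ccn1, Ccn2, Ccn3, Ccn4 and Ccn5 were followed by name in single-cell RNA sequencing of the rat cochlea. The matrices list 32623 genes, of which these 5 are the members. All 5 had at least 1 UMI (unique molecular identifier, 1 captured mRNA molecule) at every stage, and 4 of the 5 had a level of 10 or more over all cells, in UMIs scaled to a fixed library total (written CPM). The members were chosen because their levels across stages and cell types in these libraries were already known, so those levels are a description and carry no test. The files give the genes as Ccn1 (ENSRNOG00000014350), Ccn2 (ENSRNOG00000015036), Ccn3 (ENSRNOG00000008697), Ccn4 (ENSRNOG00000007078) and Ccn5 (ENSRNOG00000010666).

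The 3 libraries came from untreated Sprague-Dawley rats on postnatal days P1, P7 and P14, each made from the pooled cochleae of 40 animals and processed with 10x Genomics 3′ chemistry. The sample labels name greater epithelial ridge cells, the transient epithelium beside the inner hair cells, while the study's methods describe dissociation of the whole basal membrane. The markers of the cells follow the second description. Only 576 of the 30641 kept cells fell in a cluster with the genes of cochlear epithelium, led by Epcam, and 21 cells, all from P1, carried hair cell genes. The summed level of otic mesenchyme markers, such as Otor and Coch, ranged from 265 CPM in the hair cell-like cells to 30143 CPM in cartilage-like cells. With 1 library per stage, stage and library cannot be told apart, no test of a difference between stages was possible, and the intervals given below cover counting error only.

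CCN proteins bind integrins, heparan sulfate proteoglycans and growth factors at the cell surface and in the matrix. Ccn1 (also known as Cyr61) and Ccn2 (Ctgf) are targets of the transcriptional co-activators YAP and TAZ, which act through the TEAD factors, and both respond quickly to serum, stretch and TGF-beta. Ccn3 (Nov) can bind Notch1, Ccn4 (Wisp1) was first described as a gene induced by Wnt signalling, and Ccn5 (Wisp2) lacks the C-terminal domain that the other members have.

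Barcodes were taken as cells at over 500 but under 5000 detected genes, with mitochondrial genes holding under 25% of the UMIs. There were 12779 such cells at P1, 12581 at P7 and 5281 at P14, with a median of 6565, 6878 and 1614 UMIs per cell. The P14 library was therefore much shallower, and shares of cells with a UMI are given after each cell was thinned to 1000 UMIs, which left out 37, 193 and 735 cells. Of the barcodes kept in either library, 53 were shared by P1 and P7, 16 by P1 and P14 and 19 by P7 and P14. Levels of different members are not ranked against each other.

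The promoters of Ccn1 and Ccn2 are shown because the letters that TEAD factors bind are the best known feature of these genes. The 250 bases before the start of each gene were taken from RefSeq (assembly GRCr8). The deposited counts use the older build rn6 and hold no coordinates. Capitals mark GGAATG or its reverse complement CATTCC, the TEAD letters, and TATAAA, the TATA box. The 2 sequences lie on the minus strand at chr2:237225690-237225939 for Ccn1 and chr1:22624615-22624864 for Ccn2, and both are written in the direction of transcription.
Ccn1: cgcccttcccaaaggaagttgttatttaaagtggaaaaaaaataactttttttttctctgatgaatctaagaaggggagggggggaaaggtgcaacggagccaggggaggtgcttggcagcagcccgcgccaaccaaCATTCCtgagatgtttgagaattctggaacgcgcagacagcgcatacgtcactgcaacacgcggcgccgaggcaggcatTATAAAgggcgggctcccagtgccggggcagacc
Ccn2: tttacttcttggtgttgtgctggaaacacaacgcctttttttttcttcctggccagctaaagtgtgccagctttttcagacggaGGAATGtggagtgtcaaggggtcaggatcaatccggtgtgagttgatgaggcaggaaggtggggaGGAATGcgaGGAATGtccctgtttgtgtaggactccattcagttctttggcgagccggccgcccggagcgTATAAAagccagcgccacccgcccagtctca

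The Ccn2 window held 3 matches to GGAATG, at 166 to 161, 101 to 96 and 92 to 87 bases before the start. The Ccn1 window held 1 match, on the opposite strand at 113 to 108 bases before the start. Of 33469 rat promoter windows of the same length, 12.1% held this motif on either strand and 0.0807% held it 3 or more times. TATAAA stood 34 to 29 bases before the start of Ccn1 and 31 to 26 bases before that of Ccn2, and 8.06% of windows held it on the gene strand. CAGAC, the letters of SMAD factors that carry TGF-beta signals, occurred 2 times for Ccn1 and 1 time for Ccn2, with 42.9% of windows holding it on either strand. The AP-1 letters TGANTCA (6.34% of windows, either strand) and a CArG box (501 windows) were not among the letters of the Ccn1 or Ccn2 window. Such matches describe the sequence and not binding. Ccn3, Ccn4 and Ccn5 were not matched in the promoter table.

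Over all cells of a stage, each of the 4 members above 10 CPM had its own course. Ccn1 and Ccn2 were lower at P7 than at P1 and higher again at P14. Summed over all cells, Ccn3 was lower at each later stage, with the main drop between P7 and P14. The kinds of cells in each library differed as well, as given below. Ccn4 was highest at P7.

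**Figure D1:**
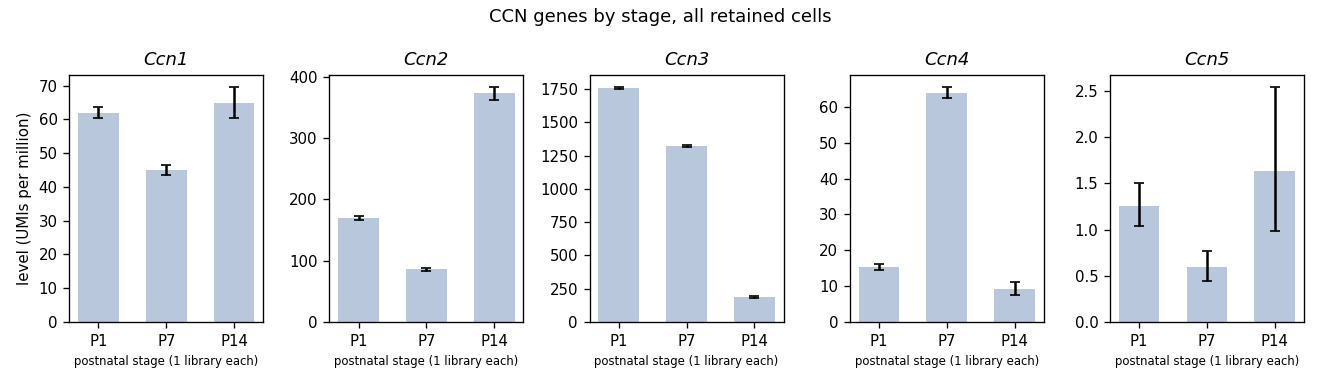
Level of each CCN gene per stage in CPM, summed over all kept cells of the stage (bars, 1 library each, linear axes starting at 0), with exact 95% Poisson intervals for counting error. Ccn4 stands at 64.0 CPM at P7 between 15.4 and 9.28 CPM, and Ccn2 reaches 373 CPM at P14.

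Ccn1 stood at 62.0 CPM at P1 (95% Poisson interval 60.5 to 63.6, 6077 UMIs), 45.0 CPM at P7 (43.6 to 46.4) and 64.9 CPM at P14 (60.3 to 69.7, 755 UMIs). The P1 and P14 intervals overlap, and P7 lies below both. The log2 ratio of P7 over P1 was -0.46 (-0.52 to -0.41) and that of P14 over P1 was 0.06 (-0.05 to 0.17). Ccn2, which drives matrix production in connective tissue, stood at 169 CPM at P1 (166 to 172, 16568 UMIs), 85.5 CPM at P7 (83.6 to 87.4) and 373 CPM at P14 (362 to 384, 4342 UMIs). No pair of these intervals overlaps. The log2 ratio was -0.98 (-1.02 to -0.95) from P1 to P7 and 2.13 (2.07 to 2.18) from P7 to P14, a 4.36-fold higher level.

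Ccn3 stood at 1761 CPM at P1 (1753 to 1769.8, 172630 UMIs), 1319.7 CPM at P7 (1312 to 1327) and 185 CPM at P14 (177 to 192, 2148 UMIs). Its level at P14 was 7.15-fold lower than at P7, a log2 ratio of -2.84 (-2.90 to -2.78), against -0.42 between P1 and P7. Ccn4 stood at 15.4 CPM at P1 (14.6 to 16.2, 1509 UMIs), 64.0 CPM at P7 (62.4 to 65.7, 5961 UMIs) and 9.28 CPM at P14 (7.61 to 11.2, 108 UMIs). It was 4.16-fold higher at P7 than at P1 and 6.90-fold lower at P14 than at P7. Ccn5 was barely detected, with 123 UMIs at P1 (1.26 CPM), 55 at P7 (0.591 CPM) and 19 at P14 (1.63 CPM).

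Of the 4 members with 10 or more CPM, 1 (Ccn4) was at least 2-fold higher at P7 than at P1 and none was at least 2-fold lower. Among all 7750 genes at that level, 7.64% were higher and 4.80% were lower by that much. From P7 to P14, 1 member (Ccn2) was at least 2-fold higher and 2 (Ccn3 and Ccn4) were at least 2-fold lower, beside 13.0% and 9.24% of all genes. These ratios were taken after adding 1 CPM, and since the members were chosen on the same levels the counts carry no further weight.

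The share of cells with a UMI followed similar courses for Ccn2, Ccn3 and Ccn4. After thinning, Ccn2 was found in 11.9% of cells at P1, 5.77% at P7 and 15.9% at P14, against 35.4%, 21.4% and 22.3% without thinning. Ccn3 was found in 38.6%, 29.9% and 6.91% of thinned cells (64.3%, 57.5% and 10.0% unthinned). Ccn4 was found in 1.58%, 5.39% and 0.924% (9.45%, 25% and 1.78% unthinned). For Ccn1 the thinned shares were 6.08%, 4.30% and 4.38% (26.5%, 21.7% and 7.25% unthinned), so that the higher CPM of P14 over P7 was not seen in the share, and no order of these stages is read from it. Ccn5 had a UMI in 0.0706%, 0.0646% and 0.198% of thinned cells.

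A small part of the cells held 50% of the UMIs of each transcript. At P1, 50% of all Ccn3 UMIs lay in 847 of 12779 cells, and single cells held up to 384 of them. At P14, 46 of 5281 cells held 50% of the Ccn3 UMIs and 139 cells held 50% of the Ccn2 UMIs. For Ccn1 the corresponding numbers were 872 cells at P1, 763 at P7 and 71 at P14. Depth and cell number differ between the libraries, and few UMIs alone give small numbers, so these are not compared across stages.

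To give levels by cell type, cells were clustered without the CCN genes, which gave 28 clusters, 27 of them with 50 or more cells. A cluster carries a cell type's name only where the mean log2 ratio of that marker list over all other cells was 1 or more. No other list could pass a share of 0.6 of that value. At least 3 markers had to reach 10 CPM, and at least 1 had to be among the 10 leading genes. Other clusters carry the names of their leading genes. To judge free RNA, a cluster with macrophage genes (Lyz2/C1qb, also holding 1359.7 CPM of Otor) served as background at P1 and P7, and B cell-like cells (Ighm) at P14. A cluster is called above background where its thinned share has a 95% interval wholly above that of the background, so that one not so called may still have the higher value. The mesenchyme genes in the Lyz2/C1qb cluster mean that its share may be more than free RNA alone, which was not tested. For Ccn3, 20 of 181 thinned Lyz2/C1qb cells had a UMI at P1 (197 CPM) and 26 of 181, or 14.4%, at P7 (509.8 CPM), with median depths of 7541 and 7082 UMIs. For the other members the share there was at most 1.66%. In the B cell-like cells at P14, with a median of 3520 UMIs, it was at most 1.05%, and the 0 of 285 cells for Ccn1 and Ccn4 allow a share of up to 1.05%.

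**Figure D2:**
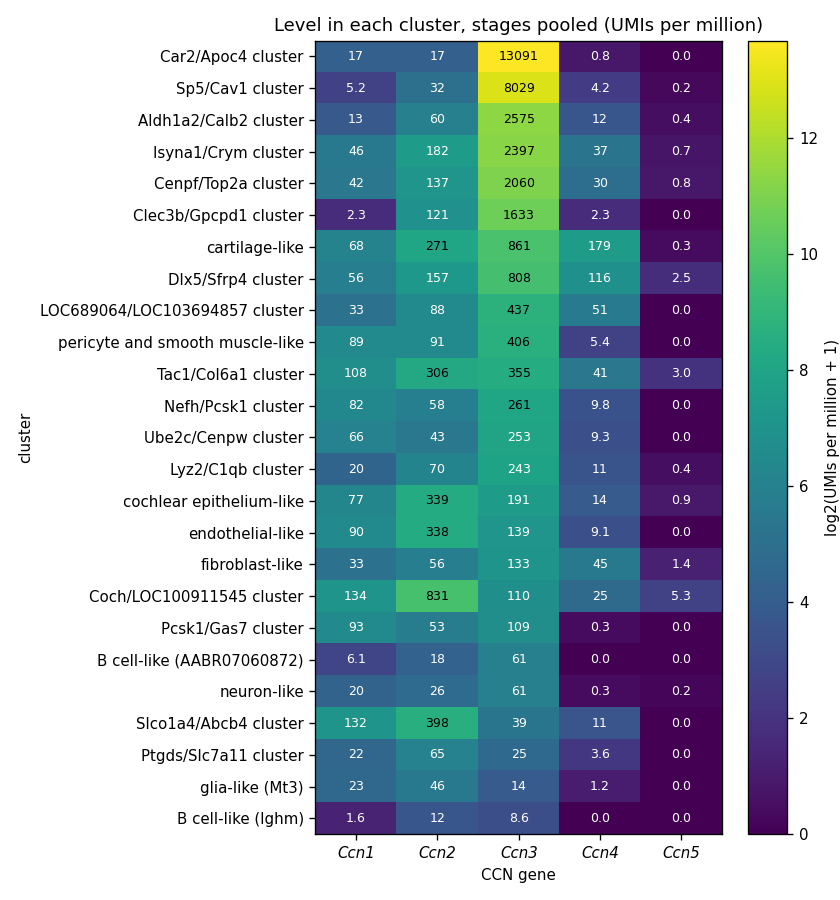
Level of each CCN gene in 25 of the 27 cell clusters with 50 or more cells, as summed CPM (printed) and log2(CPM + 1) (colour), with clusters ordered by Ccn3. Ccn3 reaches 13091 CPM in the Car2/Apoc4 cluster, With stages pooled, Ccn1 and Ccn2 are highest in the Coch/LOC100911545 cluster, nearly all of it from P14, and Ccn4 is highest in cartilage-like cells.

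Ccn3 reached 13091 CPM (12889.9 to 13295) in the 163 cells of the Car2/Apoc4 cluster and 8029 CPM (7979 to 8079) in the 1494 cells of the Sp5/Cav1 cluster. Below them, with stages pooled, lay Aldh1a2/Calb2 at 2575 CPM, Isyna1/Crym at 2397 CPM and the Cenpf/Top2a cells, led by cell division genes, at 2059.9 CPM. The order of these 3 differed by stage, with Cenpf/Top2a highest of them at P1 (2271 CPM) and Isyna1/Crym at P7 (4899.7 CPM). The median over clusters was 253 CPM and the lowest value 8.59 CPM. Of the 26 pairs of neighbours in this order, 12 had intervals that overlap, so that their order is not resolved.

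Cells with a Ccn3 UMI were most common in the first 2 of these clusters. After thinning, 98.2% of Car2/Apoc4 cells and 97.3% of Sp5/Cav1 cells had a Ccn3 UMI, compared with 60.9% of Aldh1a2/Calb2 and 61.3% of Isyna1/Crym cells. Per cell, the middle of the Car2/Apoc4 cells lay between 7945 and 17342 CPM (quartiles, median 12336). Sp5/Cav1 cells lay between 5577 and 10341 CPM (median 7832). In the Aldh1a2/Calb2 cluster the quartiles ran from 336 to 3229 CPM and 9.50% of cells had no Ccn3 UMI. By their markers, Sp5/Cav1 cells had 10965 CPM of the otic mesenchyme genes, 7795 of it from Otor, and Car2/Apoc4 cells had 1771 CPM of them and 1026 CPM of pericyte and smooth muscle genes, 509 of it from Pdgfrb. Neither passed the rule for a cell type name.

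The Ccn3 UMIs lay in different clusters at different stages. At P1 the Sp5/Cav1 cells held 51.0% of them while making up 10.7% of the cells. At P7 the same cluster held 8.26% in 1.03% of the cells. Isyna1/Crym cells held 34612 of the 172630 UMIs at P1 (24.7% of cells) and 23.1% at P7 (6.69% of cells). The share in Aldh1a2/Calb2 cells was 9.47% at P1 and 22.9% at P7, and that in Car2/Apoc4 cells 2.31% and 9.86%. At P14 the Clec3b/Gpcpd1 cluster, 312 of whose 313 cells came from that library, held 66.3% of the Ccn3 UMIs in 5.91% of the cells, at 1631 CPM (1548 to 1718). The clusters richest in Ccn3 were nearly absent from the P14 library. It held no Car2/Apoc4 or Isyna1/Crym cell, 1 Sp5/Cav1 cell, 2 Aldh1a2/Calb2 cells and 1 Cenpf/Top2a cell. The lower P14 level over all cells is therefore not read as a fall within those clusters.

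**Figure D3:**
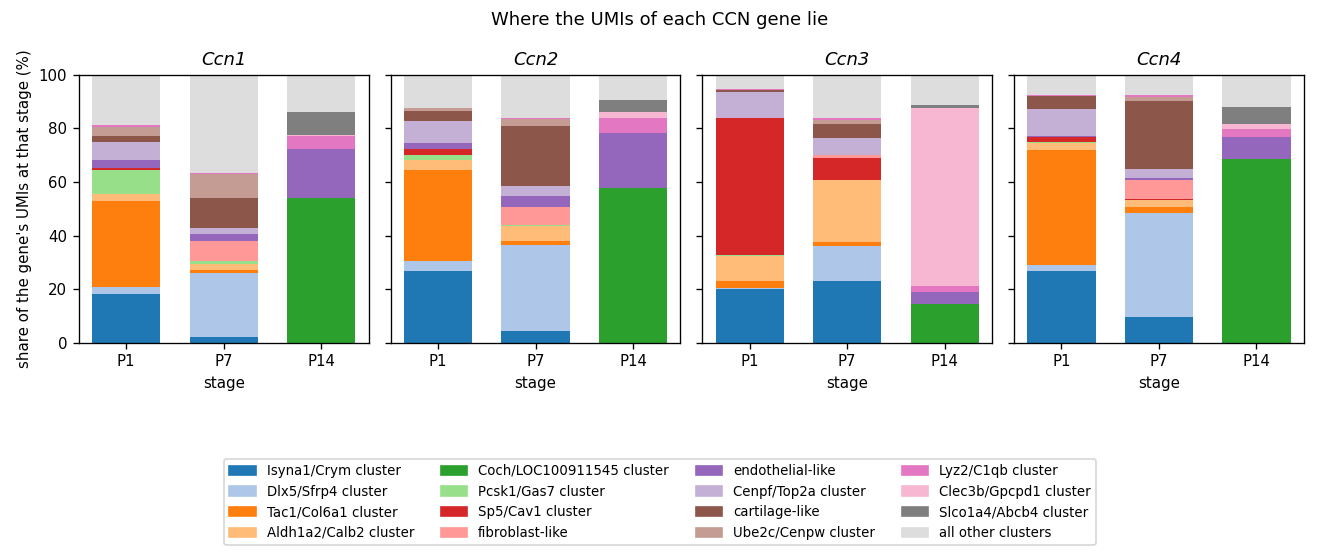
Share of each gene's UMIs held by each cell cluster at each stage (stacked bars from 0 to 100%, 1 library per stage). Sp5/Cav1 cells hold 51.0% of Ccn3 UMIs at P1 and 8.26% at P7, and the Coch/LOC100911545 cluster holds 53.9%, 57.9% and 68.5% of the Ccn1, Ccn2 and Ccn4 UMIs at P14. The latter cluster makes up 1738 of the 5281 P14 cells.

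Within most clusters, Ccn3 went the other way from the sum over all cells. Of 18 clusters with 50 or more cells at both P1 and P7, 13 had a higher Ccn3 level at P7 with a counting interval above 0, 4 had a lower one, and 1 spanned 0 (median log2 ratio 0.82). The Car2/Apoc4 cluster stood at 7908 CPM at P1 and 16698 CPM at P7. Sp5/Cav1 cells stood at 7819 and 10468 CPM, Aldh1a2/Calb2 cells at 1751 and 3541 CPM, and Isyna1/Crym cells at 1689 and 4899.7 CPM. Tac1/Col6a1 cells had the largest ratio, from 262 to 1591 CPM. The Cenpf/Top2a cells were lower, from 2271 to 1702 CPM, and cartilage-like cells stood at 836 and 864 CPM, with an interval that spans 0. The background cluster was also higher at P7, by a log2 ratio of 1.37. In share of Ccn3-positive cells, 9 clusters lay above the background cluster at P1 or P7. Of these, 6 were higher at P7, 2 were lower and 1 spanned 0. Dlx5/Sfrp4 and Tac1/Col6a1 cells, both higher at P7, passed only at that stage. The filter thus favours a higher P7 level there, and no direction is read from this count.

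The makeup of the libraries was then held fixed, for P1 and P7 only. Over the 18 clusters Ccn3 stood at 1887 CPM at P1 and 1465 CPM at P7, a log2 ratio of -0.37. With the P7 levels of each cluster at the cluster shares of P1, the sum was 3398 CPM, a log2 ratio of 0.85 over P1. At the cluster shares of P7, the P1 levels summed to 868 CPM, and the ratio was 0.76. For Ccn1, Ccn2 and Ccn4 the direction was the same with the makeup held fixed. Ccn2 went from 179 to 88.7 CPM as observed and to 64.4 CPM at the P1 makeup, Ccn1 from 65.1 to 46.4 and 30.9 CPM, and Ccn4 from 16.3 to 66.5 and 57.3 CPM.

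**Figure D4:**
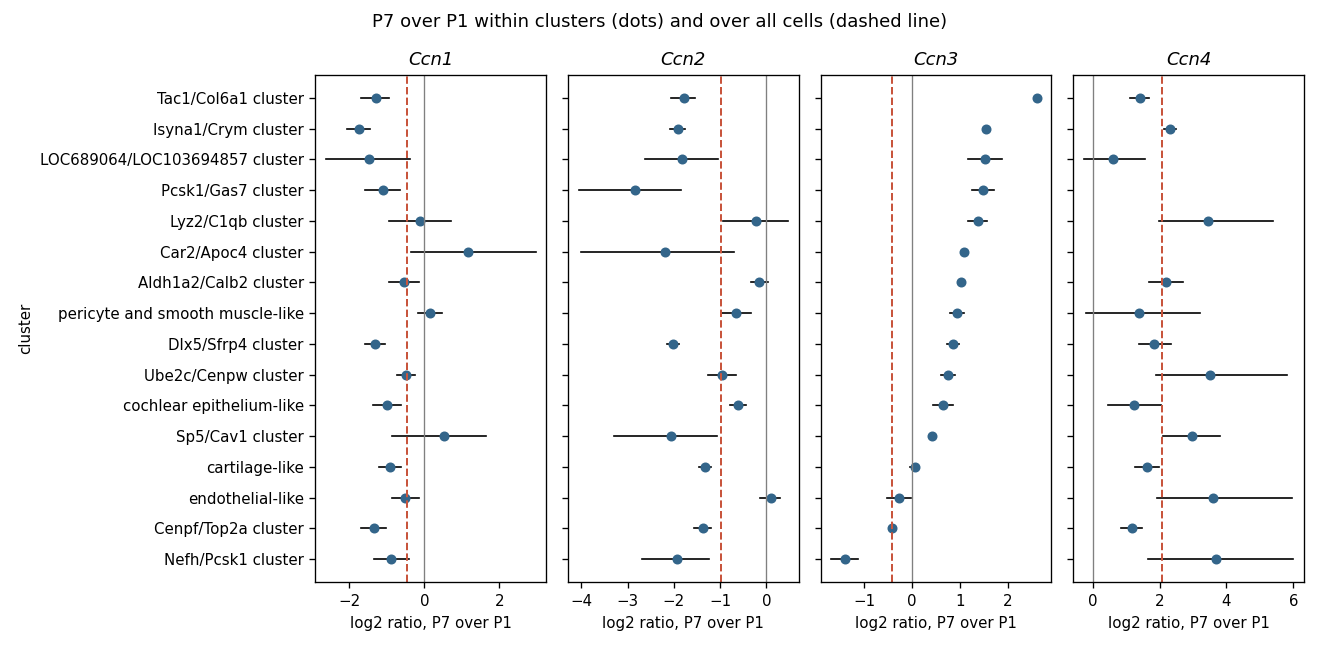
Log2 ratio of P7 over P1 within each of 16 of the 18 clusters with 50 or more cells at both stages, for Ccn1 to Ccn4 (points with 95% counting intervals, dashed line the ratio over all cells, no Ccn4 point in 2 clusters). Ccn1 and Ccn2 points lie mostly below 0 and Ccn4 points above 0. Ccn3 intervals lie wholly above 0 in 12 clusters although the ratio over all cells is -0.42.

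Across all 3 stages, 4 clusters had 50 or more cells each time, the background cluster among them. Ccn3 in endothelial-like cells stood at 182 CPM at P1, 151 at P7 and 70.5 at P14, below the background cluster's level at P1 and P7. In pericyte and smooth muscle-like cells it stood at 279.9, 535 and 318 CPM, the last from 27 UMIs, and was not above background at P1 or P7. In cochlear epithelium-like cells it stood at 147, 232 and 304 CPM, the first 2 of these also below the background cluster (197 and 509.8 CPM).

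With stages pooled, Ccn2 was highest in the Coch/LOC100911545 cluster, at 831 CPM (799 to 864). Slco1a4/Abcb4 cells, which carried endothelial genes (4005 CPM) together with pericyte and smooth muscle genes (2933 CPM), followed at 398 CPM (351 to 451), and then cochlear epithelium-like cells at 339 CPM (322 to 357) and endothelial-like cells at 338 CPM (321 to 355). The intervals of the last 2 overlap, and that of Slco1a4/Abcb4 overlaps them only in its lower part. The Coch/LOC100911545 cluster had 1738 of its 1753 cells from P14, and its markers were mixed, with 20902 CPM of otic mesenchyme genes (17789 from Coch), 14399.5 CPM of fibroblast genes and 9257 CPM of osteoblast genes (4568 from Bglap). The pooled order therefore compares a P14 cluster with clusters of several stages. At P14 alone Ccn2 stood in the Coch/LOC100911545 cluster at 857 CPM (824 to 891), which overlaps cochlear epithelium-like cells at 769 CPM (666 to 884), with endothelial-like cells at 639.7 CPM (598 to 683). The Coch/LOC100911545 cluster held 57.9% of all Ccn2 UMIs of the stage in 1738 of its 5281 cells. Endothelial-like cells held a further 20.3% in 914 cells. The cells that held most Ccn2 at P1 were others, Tac1/Col6a1 with 34.0% (18.6% of cells) and Isyna1/Crym with 26.8% (24.7% of cells). At P7 they were Dlx5/Sfrp4 with 32.3% (2546 of 12581 cells) and cartilage-like cells with 22.4% (814 cells).

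Ccn2 was lower at P7 than at P1 within 15 of the 18 clusters, higher in none, and spanned 0 in 3 (median log2 ratio -1.56, range -2.84 to 0.09). Among the 10 clusters above the background at P1 or P7, 9 were lower. All 10 passed at P1 but only 4 at P7, so the filter favours a lower P7 level and no direction is read from this count. In Dlx5/Sfrp4 cells Ccn2 stood at 544 CPM at P1 and 134 CPM at P7, and in Tac1/Col6a1 cells at 322 and 92.8 CPM. It stood at 217 and 57.6 CPM in Isyna1/Crym cells and at 570.0 and 228 CPM in cartilage-like cells. Endothelial-like cells did not share this, with 207 CPM at P1, 220.3 CPM at P7 and 639.7 CPM at P14. The log2 ratio of P14 over P7 there was 1.54 (1.36 to 1.72). In cochlear epithelium-like cells Ccn2 stood at 368, 240.4 and 769 CPM, while the thinned share of cells with a UMI at P14 (13.3% of these cells) lay below those at P1 (19.3%) and P7 (21.5%), so that no order is read for this cluster at P14. The Lyz2/C1qb cluster had 26.5, 22.6 and 159.5 CPM.

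With stages pooled, Ccn1 was highest in the Coch/LOC100911545 cluster at 134 CPM (122 to 148) and in Slco1a4/Abcb4 cells at 132 CPM (105 to 163), which overlap, followed by Tac1/Col6a1 cells at 108 CPM (103 to 112). The median cluster stood at 45.9 CPM and the lowest, B cell-like cells, at 1.56 CPM. Of 26 neighbouring pairs, 23 overlap, and the highest cluster changed with the setting: with the mean CPM of single cells it was Slco1a4/Abcb4, and with a finer clustering another cluster, of 878 cells, at 170.3 CPM. By value, the highest within a stage were Dlx5/Sfrp4 cells at P1 (129 CPM) and pericyte and smooth muscle-like cells at P7 and P14, at P14 with an interval that overlaps the Coch/LOC100911545 cluster. Within clusters Ccn1 was lower at P7 than at P1 in 14 of 18, higher in none, and spanned 0 in 4 (median log2 ratio -0.85). Dlx5/Sfrp4 cells stood at 129 and 51.7 CPM, Tac1/Col6a1 cells at 112 and 45.7 CPM, and Isyna1/Crym cells at 54.3 and 16.2 CPM. Among the 12 clusters above background at P1 or P7, 11 were lower. All 12 passed at P1 but only 7 at P7, so here too the filter favours a lower P7 level and no direction is read. Pericyte and smooth muscle-like cells stood apart, with 81.8 CPM at P1, 91.3 CPM at P7 and 212 CPM at P14 (126 to 335, 18 UMIs). Sp5/Cav1 cells, where Ccn3 was so high, had 5.06 and 7.22 CPM of Ccn1.

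With stages pooled, Ccn4 was highest in cartilage-like cells. They had 179 CPM (170.3 to 188), Dlx5/Sfrp4 cells 116 CPM (112 to 121), and the next cluster, LOC689064/LOC103694857, 51.4 CPM (38.5 to 67.2). The name cartilage-like is a label from the naming rule. Only 3 of 8 cartilage markers reached 10 CPM there, summing to 9927 CPM, of which 7052 came from Col9a1. Otic mesenchyme genes summed to more in these cells, 30143 CPM, of which 19942 came from Otor. The median cluster had 9.75 CPM. At P7 cartilage-like cells stood at 196 CPM and Dlx5/Sfrp4 cells at 121 CPM, compared with 64.1 and 33.8 CPM at P1. Tac1/Col6a1 cells stood at 37.0 CPM at P1 and 97.4 CPM at P7, and Isyna1/Crym cells at 19.6 and 97.0 CPM. Most Ccn4 UMIs of P1 lay in these last clusters, 42.8% in Tac1/Col6a1 and 26.6% in Isyna1/Crym cells, against 4.77% in cartilage-like and 2.52% in Dlx5/Sfrp4 cells. In the same order, these clusters had 2383, 3152, 153 and 151 of the 12779 P1 cells. At P7, Dlx5/Sfrp4 held 38.9% (2546 of 12581 cells) and cartilage-like cells 25.6% (814 cells). A ratio could be formed in 16 clusters, and in 13 the interval lay above 0, in none below (median 1.87). The background cluster was among the 13, at 2.65 CPM at P1 and 28.8 CPM at P7, a log2 ratio of 3.44 (1.98 to 5.38). In share of cells, 4 clusters lay above the background cluster at P1 or P7, the 4 just named. All 4 had a higher level at P7, with log2 ratios from 1.40 to 2.31. Only Tac1/Col6a1 and cartilage-like cells passed at P1. Dlx5/Sfrp4 and Isyna1/Crym cells passed only at P7, where they were higher, so the filter favours that direction for them. The P14 library held no cartilage-like, Dlx5/Sfrp4, Tac1/Col6a1 or Isyna1/Crym cell, so its lower Ccn4 level is not read as a fall within them. At P14, 74 of the 108 UMIs lay in the Coch/LOC100911545 cluster, at 25.2 CPM (19.8 to 31.6). The thinned share of that cluster was 1.65%, with an interval that overlaps that of the background, while the B cell-like cells (Ighm) had no Ccn4 UMI, which allows up to 2.39 CPM there.

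Ccn5, a member found in fibroblasts and smooth muscle in other tissues, had too few UMIs for thinned shares to be compared with the background. With stages pooled, its highest values were 5.29 CPM in the Coch/LOC100911545 cluster (3.02 to 8.58, 16 UMIs), 3.03 CPM in Tac1/Col6a1 cells and 2.47 CPM in Dlx5/Sfrp4 cells. Within a stage, the highest was 12.5 CPM in Dlx5/Sfrp4 cells at P1 (6.81 to 20.9), where 14 UMIs lay in 10 of 151 cells, while the Lyz2/C1qb cluster had 1 UMI at that stage (0.663 CPM). At P7 the Dlx5/Sfrp4 cells stood at 1.88 CPM. In the pooled order all 26 neighbouring pairs overlap.

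Ccn1 and Ccn2 tended to be high in the same clusters. Over the 28 clusters the correlation of log2(CPM + 10) was 0.70 for this pair, 0.59 for Ccn2 with Ccn4, 0.35 for Ccn3 with Ccn4 and -0.05 for Ccn1 with Ccn3. These describe clusters that share libraries and depth. In single cells thinned to the same depth, 20.9% of cells with a Ccn1 UMI also had a Ccn2 UMI, compared with 9.36% of cells without Ccn1. The values were 25.4% and 11% at P1, 8.63% and 5.64% at P7, and 36.2% and 15.0% at P14. Within clusters, with stages pooled, the share was higher among Ccn1-positive cells in 16 of the 20 with 10 or more such cells. The intervals lay apart in 7, including Tac1/Col6a1 (37.8% and 17.8%), Coch/LOC100911545 (41.3% and 24.2%), endothelial-like (40.3% and 22.5%) and cochlear epithelium-like cells (43.3% and 17.8%). Both genes also differed by stage within clusters, and the part of pooling the stages in these shares was not tested.

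**Figure D5:**
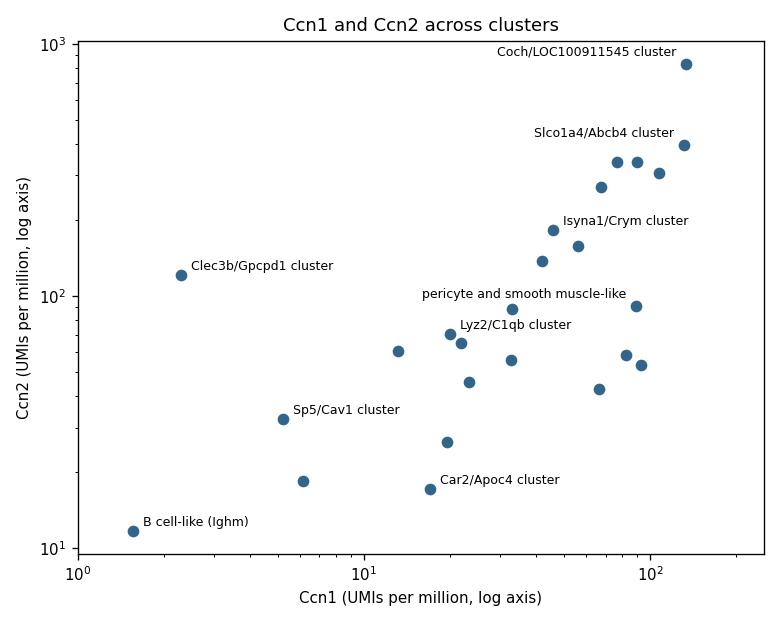
Level of Ccn1 against Ccn2 in 25 clusters with 50 or more cells (both axes logarithmic, CPM summed over all stages, 1 point per cluster). The Coch/LOC100911545 cluster stands highest on both axes at 134 CPM of Ccn1 and 831 CPM of Ccn2.

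Across the 28 clusters, the genes most like each member among 7749 candidates were as follows. Ccn1 was closest to Col4a1, a basement membrane collagen (Pearson r 0.82), Notch1 (0.82) and Sparc, itself a matricellular protein (0.78). Ccn2 was closest to Fam107a (0.85), Cst3, which encodes cystatin C (0.81), and Lifr, a cytokine receptor (0.81), all highest in the Coch/LOC100911545 cluster (264, 12093 and 74.0 CPM). Ccn3 was closest to Postn, which encodes the matricellular protein periostin (0.90), LOC100911486 (0.88) and the transcription factor Tbx1 (0.86). Postn and Tbx1, like Ccn3, were highest in the Car2/Apoc4 cluster (1573 and 124 CPM). Ccn4 was closest to Col9a1, a cartilage collagen (0.95), Rbpjl (0.94) and the protease Adamts9 (0.91). Col9a1 was highest in Dlx5/Sfrp4 cells (8362 CPM) and stood at 7052 CPM in cartilage-like cells. Correlations over clusters carry no test, since the clusters share libraries.

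The pathway lists were compared with the members in the same way. Of the 5 Wnt targets and modulators with 10 or more CPM, 4 had a correlation with Ccn3 above 0.5 (median 0.79), compared with 9.30% of all genes. They were Notum, which inactivates Wnt proteins (0.82), the feedback inhibitors Axin2 (0.80) and Nkd1 (0.62), and the transcription factor Sp5 (0.79), with Lef1 at 0.47. Of the 3 list genes below that level, Tcf7 stood at 0.51, Rnf43 at 0.38 and Lgr5 at -0.14. Notum stood at 541 CPM in Clec3b/Gpcpd1 cells and 249 CPM in Sp5/Cav1 cells. Sp5 stood at 212 CPM in Sp5/Cav1 cells, a cluster named after it. By stage, Notum was at least 2-fold higher at P7 than at P1 (30.8 and 62.9 CPM, with 7.64% of all genes) and Sp5 lower (40.7 and 9.60 CPM, with 4.80% of all genes), and from P7 to P14 Nkd1 was lower (48.7 and 19.8 CPM, with 9.24% of all genes). Without the 2 clusters highest for Ccn3, left out after the values were seen, the median was 0.70. Over those 26 clusters 3 of the 5 were above 0.5, compared with 10.0% of all genes. Nkd1 (0.44) was no longer among the 3. For Ccn4, known as a Wnt-induced gene, none of the 5 was above 0.5 over all clusters, compared with 9.05% of all genes. That is about the number that this share gives.

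Ccn1 was above 0.5 with 7 of 14 immediate-early genes (4.98% of all genes), the AP-1 genes Fosb (0.77) and Jun (0.76) among them, and with 3 of 10 YAP/TAZ targets, among them Amotl2 (0.76). None of 11 TGF-beta genes and none of 5 Wnt genes was above 0.5 with Ccn1. Ccn2 was above 0.5 with 4 of 10 YAP/TAZ targets, Tgfb2 (0.67, also counted among the TGF-beta genes) and Amotl2 (0.62) among them, with 6 of 14 immediate-early genes, 5 of 13 CCN receptors and binding partners, 3 of 11 TGF-beta genes and none of 5 Wnt genes (8.81% of all genes).

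Over all cells, 6 of the 14 immediate-early genes at 10 or more CPM were at least 2-fold lower at P7 than at P1 (4.80% of all genes) and 1, Nr4a1, was higher (1.55, with 7.64% of all genes), with a median log2 ratio of -0.93 against 0.12 for all genes. Egr1 stood at 562 CPM at P1 and 115 CPM at P7, and Fos at 1141 and 345 CPM. From P7 to P14, 6 were higher (13.0% of all genes) and 1, Nr4a1, was lower (-2.06, with 9.24% of all genes), with a median of 0.65 against 0.02 for all genes, Zfp36 at a log2 ratio of 1.96 and Dusp1 at 1.55. Dissociation of tissue is known to induce these genes, and their part in the levels of Ccn1 and Ccn2 was not tested. The same shares of all genes, 7.64% and 4.80% from P1 to P7 and 13.0% and 9.24% from P7 to P14, apply to the lists that follow. Of 10 YAP/TAZ targets, 2 were higher at P7 than at P1, F3, which encodes tissue factor (2.64), and Gadd45a (1.35), and 2 were lower, Ccdc80 (-1.36) among them. From P7 to P14 again 2 were higher, F3 (1.04) and Lats2 (1.64), and 2 were lower. Among 9 genes of the pathway itself none differed 2-fold between P1 and P7, and from P7 to P14 the kinase Lats2 was higher and the TEAD factor Tead2 lower (81.3 and 19.6 CPM). Of 11 TGF-beta genes, 1 was higher at P7 than at P1, about the number that the share of all genes gives, and 4 at P14 than at P7, with the co-receptor Tgfbr3 at 30.5 CPM at P1, 65.0 CPM at P7 and 369 CPM at P14. Of 13 receptors and binding partners, 2 were higher at P7 than at P1, Dcn (log2 ratio 1.67), which encodes the proteoglycan decorin, and Gja1 (1.00), and 2 at P14 than at P7, Gja1 (1.99) and the heparan sulfate proteoglycan Sdc4 (1.17).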

How the data were processed

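Per the labels and the study's methods, the authors sequenced 10x Genomics 3′ libraries and counted reads with Cell Ranger on rn6. The deposited matrices hold raw UMI counts per gene and barcode. The gene annotation is not given in the sources used here. The submitters' processing notes name Seurat 3.1.1.

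The deposited matrices hold 34927 barcodes, the number the study gives as cells past its quality limits. Applying its limits on genes and mitochondrial share here kept 30641 of them. These cells held 98005495 UMIs (P1), 93080129 (P7) and 11641065 (P14). CPM was computed as the gene's summed UMIs over all summed UMIs of the group, in the usual CPM scale. Intervals are exact at 95% (Poisson for levels, Clopper-Pearson for shares), and a count of 0 was given a limit of 3 counts. Clusters came from Seurat 5.3.0 under R 4.3.3 on the merged libraries without integration, using LogNormalize, 2000 variable genes less the CCN genes, 10 principal components, resolution 0.8 and seed 0. Of 28 clusters, 11 received a cell type name from 18 marker lists. The naming rule was set after values were seen. Scrublet (scanpy 1.11.5) marked 4.87%, 6.16% and 0.0379% of cells at P1, P7 and P14, and so had not worked at P14. No cells were removed as doublets in the main analysis.

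The members and lists were chosen with earlier results of these data known. Named genes are the members, the 3 genes most like each, up to 3 genes of a list by size of change, and, chosen after their values were seen, the list genes most correlated with a member. The calculation of the ratios was checked on simulated counts with known ratios, which tests no difference between stages. The values of 2 clusters are not reported here or drawn, and they stay in the counts over clusters.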

Additional observations from a re-analysis of the deposited data

Results flagged for a closer look

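The Ccn3 log2 ratio of P7 over P1 pointed in opposite directions in different clusters. It was 2.60 in Tac1/Col6a1 cells (262 CPM at P1, 1591 CPM at P7) and -1.41 in Nefh/Pcsk1 cells (367 and 138 CPM). The difference between these clusters was not tested, since each stage is 1 library. Tac1/Col6a1 cells were mostly from P1, and at that stage the interval of their thinned Ccn3 share (16.3%) overlapped that of the background cluster, which stood at 197 CPM. Nefh/Pcsk1 cells carried neuronal genes (2187 CPM) together with those of other cell types, and the interval of their Ccn3 share did not lie above that of the background cluster at either stage.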

How the results depend on the processing

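No ratio between 2 stages whose interval excluded 0 changed direction with another mitochondrial limit, the mean over single cells, doublets left out or all barcodes, though next to no cells were marked as doublets at P14. With a mitochondrial limit of 10%, the P7 over P1 log2 ratio was -0.53 for Ccn1, -0.34 for Ccn3 and 2.14 for Ccn4, P14 over P1 was 1.05 for Ccn2 and -3.40 for Ccn3, and P14 over P7 was 0.65 for Ccn1, 2.01 for Ccn2 and -3.06 for Ccn3. With the mean CPM of single cells, P7 over P1 was -0.54 for Ccn1, -1.15 for Ccn2 and 1.84 for Ccn4, P14 over P1 was -0.09 for Ccn1 and 1.33 for Ccn2, P14 over P7 was 2.48 for Ccn2 and -2.48 for Ccn4, and the highest Ccn3 level was 13315 CPM. With all barcodes, P7 over P1 was -0.40, -0.90, -0.43 and 2.14 for Ccn1 to Ccn4, and P14 over P1 of Ccn2 was 1.21. Without Scrublet doublets the highest Ccn3 level was 13589 CPM. At resolution 1.2 the highest Ccn1 level was 170.3 CPM, in a cluster of 878 cells with none of the cells of the reported cluster. With 20 principal components the highest Ccn2 level was 889 CPM and the highest Ccn3 level 13977 CPM. Restricting to clusters above background, an alternative chosen after seeing the data, left Ccn2 lower in 9 clusters, Ccn3 higher in 6 and Ccn4 higher in 4. The cause of the smaller counts was not tested. Some clusters passed only at the stage where the gene was higher, so no direction is read from these counts. Cells were shallowest at P14 (median 1614 UMIs), and few UMIs limit Ccn5 at every stage. No paired analysis was possible because each stage has 1 library.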
